A study of Mus musculus with 18 samples.

Results

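The genes that write, copy and remove DNA methylation were compared between *Atrx* WT and *Atrx* KO mesenchymal progenitor cells (MPCs). 8 genes form this set: *Dnmt1*, *Uhrf1*, *Dnmt3a*, *Dnmt3b*, *Tet1*, *Tet2*, *Tet3* and *Tdg*. They were found by matching the gene identifiers of both count tables to these symbols, and all 8 of 8 were present among 24100 genes in each table. All 8 also passed the filter on low counts, which kept 15480 genes in the polyA libraries and 13303 in the rRNA-depleted libraries. C3H/10T1/2 cells, a mouse embryonic line with the character of mesenchymal progenitors, carried Cas9 with an empty vector (WT) or with 1 of 2 sgRNAs against *Atrx*, sg5 or sg6. Each *Atrx* KO group is 1 clone, G7 for sg5 and B10 for sg6, so a difference from WT holds whatever else separates those lines. Each line gave 3 libraries of polyA-selected RNA and 3 of rRNA-depleted RNA, 18 in all, and both clones were set against the same WT libraries.

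DNA methylation in mammals sits mostly on cytosines that precede guanines. DNMT1, brought to freshly copied DNA by UHRF1, restores the mark behind the replication fork, whereas DNMT3A and DNMT3B set it at new sites. TET enzymes oxidise 5-methylcytosine stepwise, and the glycosylase TDG cuts out the most oxidised forms for repair. ATRX, the chromatin remodeler removed here, contains a domain related to part of the DNMT3 enzymes and works at heterochromatin.

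Library totals ran from 27544833 to 235346363 counts for polyA, with all 3 sg5 libraries above every other, and from 20135336 to 33187136 for rRNA-depleted RNA. *Atrx* RNA measured between 276 and 328 CPM (counts scaled to a common library size) in the WT polyA libraries and between 114 and 141 CPM in the 6 KO polyA libraries. Among rRNA-depleted libraries it was 192 to 231 CPM in WT and 60.8 to 112 CPM in the KO clones, so the lines were apart in both kinds. Of 14 mesenchymal markers, 13 reached 1 CPM in both kinds of library, and their summed level was 37719 to 58329 CPM in polyA and 5638 to 13112 CPM in rRNA-depleted libraries. It was higher in all KO libraries than in all WT libraries of the same kind. This sum is weighted to the most abundant markers, with *Fn1* alone at 19630 to 31940 CPM in polyA libraries. Less abundant ones, such as *Thy1* at 0.246 to 154 CPM there, hardly move it. Pluripotency markers stayed near 0, with a summed level of at most 1.42 CPM and *Nanog* as the single gene of 7 that reached 1 CPM. Among the other cell types, 1 of 5 epithelial markers (*Cdh1*), 1 of 5 blood markers (*Cd68*) and 1 of 4 endothelial markers (*Tek*) reached 1 CPM. In polyA libraries the summed epithelial markers were 2.76 to 5.03 CPM in WT. They were 0.890 to 1.71 CPM in sg5 and 0.355 to 0.723 CPM in sg6. The endothelial ones were 1.29 to 1.99 CPM in WT, 9.43 to 14.2 CPM in sg5 and 8.44 to 11.0 CPM in sg6. After rRNA depletion the epithelial sum was 1.62 to 3.17, 0.115 to 0.618 and 0.302 to 0.570 CPM in WT, sg5 and sg6. The endothelial sum was 2.62 to 4.16, 3.46 to 14.1 and 7.75 to 10.0 CPM, and sg5 overlapped WT there. Apart from *Tek*, no endothelial marker exceeded 0.445 CPM. The part of these markers in the results was not tested. RNA was taken from whole cultures, so fewer cells expressing a gene and less RNA per cell cannot be told apart.

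As a level per length, in CPM per kilobase of annotated exon, the maintenance pair stood at the top in every group and kind of library. In WT polyA libraries *Uhrf1* averaged 28.6 and *Dnmt1* 24.5 CPM per kilobase, and their libraries overlapped. *Tdg* followed at 13.6, then *Tet3* at 4.22, *Dnmt3a* at 2.69, *Tet2* at 2.69, *Tet1* at 1.91 and *Dnmt3b* at 0.967 CPM per kilobase. *Tdg* lay above *Tet3*, *Tet3* above *Dnmt3a*, and *Tet1* above *Dnmt3b* in every WT polyA library, whereas *Dnmt3a*, *Tet2* and *Tet1* overlapped their neighbours. In WT rRNA-depleted libraries the order was *Uhrf1* at 39.1, *Dnmt1* at 20.8, *Tdg* at 3.54, *Tet2* at 1.42, *Dnmt3a* at 1.01, *Tet3* at 0.646, *Dnmt3b* at 0.563 and *Tet1* at 0.478 CPM per kilobase. There the last 3 overlapped in turn. These cells thus held far more RNA for the maintenance pair than for the de novo enzymes or any of the 3 TET genes, per length.

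The genes lie on 7 autosomes in GRCm38, and the positions given run over all annotated exons and introns. *Dnmt1* lies at chr9:20907209-20959888 on the minus strand, and *Uhrf1* at chr17:56303321-56323486 on the plus strand. *Dnmt3a* is found at chr12:3806007-3914443 and *Dnmt3b* at chr2:153649450-153687730, both on the plus strand. The TET genes are all on the minus strand, *Tet1* at chr10:62804570-62908996, *Tet2* at chr3:133463679-133545139 and *Tet3* at chr6:83362373-83459084. *Tdg* occupies chr10:82629828-82650799 on the plus strand. Some counts carry an annotation limit. Of the 31-base words of *Tdg* transcripts, 48.0% also occur in other transcripts, mainly the copies *Tdg-ps*, *Gm9855* and *Gm5597*, against 24.2% for *Uhrf1* and 13.5% for *Dnmt3b* (shared with *Dnmt3c*) and at most 1.75% for the other 5. *Dnmt3a*, *Dnmt3b*, *Tet2*, *Tet3* and *Tdg* overlap a gene on the other strand, and the strand setting of the counting was not stated, so reads of the 2 partners cannot be told apart. On their own strand, *Tet1* overlaps *Gm48353* and *Gm26479*, *Tet3* overlaps *Mir6374* and *5430434F05Rik*, and *Dnmt1* overlaps *Mir7081*, which leaves *Uhrf1* as the member with no overlapping gene. Counts of these genes are uncertain to that extent.

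Maintenance of methylation was compared first. *Dnmt1*, the maintenance methyltransferase, measured 238, 190 and 114 CPM in the WT polyA libraries, 134, 187 and 151 CPM in sg5 and 153, 139 and 97.9 CPM in sg6. The WT libraries spanned more than those of either clone, and all 3 groups overlapped. Its log2 fold change was -0.20 (SE 0.26, 95% interval -0.79 to 0.39, adjusted p = 0.614) in sg5 and -0.47 (SE 0.26, -1.06 to 0.12, adjusted p = 0.204) in sg6. In rRNA-depleted libraries *Dnmt1* measured 153, 190 and 117 CPM in WT, 59.1, 128 and 102 CPM in sg5 and 93.7, 143 and 99.7 CPM in sg6. The first sg5 library was the lowest of the 9. The log2 fold change was -0.67 in sg5 (SE 0.26, -1.24 to -0.11, adjusted p = 0.202) and -0.45 in sg6 (SE 0.26, -1.01 to 0.11, adjusted p = 0.539). All 4 estimates were below 0 and none passed the test. Without WT replicate 3, *Dnmt1* passed in sg6 polyA libraries (-0.72, adjusted p = 0.0323).

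*Uhrf1*, which recognises hemimethylated DNA and recruits DNMT1, varied more than any other member among the polyA WT libraries in CPM fold. It measured 181, 125 and 60.5 CPM in WT, 112, 170 and 121 CPM in sg5 and 138, 108 and 57.2 CPM in sg6. The third library was the lowest in WT and in sg6, sg5 lay within the WT range, and the lowest sg6 library was just under it. The log2 fold changes were 0.14 (SE 0.40, 95% interval -0.76 to 1.05, adjusted p = 0.833) in sg5 and -0.27 (SE 0.40, -1.18 to 0.63, adjusted p = 0.651) in sg6. In rRNA-depleted libraries *Uhrf1* measured 175, 201 and 123 CPM in WT, 46.3, 147 and 117 CPM in sg5 and 94.9, 191 and 114 CPM in sg6. The first sg5 library was again the lowest. There the log2 fold changes were -0.69 (SE 0.35, -1.45 to 0.07, adjusted p = 0.347) in sg5 and -0.32 (SE 0.35, -1.07 to 0.43, adjusted p = 0.804) in sg6. Each of these 4 intervals reached past a log2 value of 1 in size, so a 2-fold difference of *Uhrf1* lies inside what these libraries allow.

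The de novo enzymes were steadier. *Dnmt3a*, the main de novo methyltransferase of somatic cells, measured 36.4, 42.3 and 55.8 CPM in the WT polyA libraries, 49.1, 47.8 and 47.7 CPM in sg5 and 37.3, 42.6 and 40.7 CPM in sg6. Both clones fell within the WT range, and every sg5 library was above every sg6 library. It measured, with rRNA depletion, 15.6, 18.1 and 16.6 CPM in WT, 23.6, 27.7 and 18.1 CPM in sg5 and 16.4, 15.3 and 16.1 CPM in sg6. Again no sg5 library was as low as the highest sg6 library. Against WT, the log2 fold change in sg5 was 0.10 (SE 0.14, 95% interval -0.21 to 0.42, adjusted p = 0.625) in polyA and 0.46 (SE 0.18, 0.08 to 0.84, adjusted p = 0.191) in rRNA-depleted libraries. In sg6 it was -0.16 (SE 0.14, -0.47 to 0.16, adjusted p = 0.431) and -0.07 (SE 0.18, -0.45 to 0.31, adjusted p = 0.930). Between the clones, sg5 minus sg6, it was 0.26 (SE 0.14, -0.05 to 0.57, adjusted p = 0.404) and 0.54 (SE 0.18, 0.16 to 0.92, adjusted p = 0.395). The intervals of *Dnmt3a* stayed within a 2-fold change in all 6 comparisons.

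*Dnmt3b*, the de novo enzyme typical of early embryonic cells, was the least abundant member per length in all polyA groups. It measured 4.54, 5.4 and 4.87 CPM in WT, 4.98, 4.0 and 4.06 CPM in sg5 and 3.70, 3.81 and 3.89 CPM in sg6. All 3 sg6 libraries were lower than all 3 of WT. The fold change on the log2 scale was -0.38 in sg6 (SE 0.14, 95% interval -0.70 to -0.07, adjusted p = 0.0669) and -0.19 in sg5 (SE 0.14, -0.50 to 0.12, adjusted p = 0.353). DESeq2 called the sg6 difference (log2 fold change -0.40, adjusted p = 0.0215), and the edgeR fit without sg5 replicate 1 did so too (-0.39, adjusted p = 0.0490). In rRNA-depleted libraries *Dnmt3b* measured 3.20, 2.84 and 2.59 CPM in WT, 3.50, 2.95 and 1.86 CPM in sg5 and 2.89, 2.57 and 2.89 CPM in sg6, from 48 to 93 counts a library. The groups overlapped, with log2 fold changes of -0.05 (SE 0.28, -0.64 to 0.54, adjusted p = 0.954) in sg5 and -0.04 (SE 0.27, -0.64 to 0.55, adjusted p = 0.977) in sg6.

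*Tet1*, a 5-methylcytosine dioxygenase with a CpG-binding CXXC domain, was the member that passed the test. It measured 17.4, 31.6 and 39.4 CPM in the WT polyA libraries, 18, 17 and 21.1 CPM in sg5 and 12.2, 14.9 and 18.7 CPM in sg6. The first WT library lay among the KO libraries, and the other 2 were above all 6 of them. *Tet1* fell in sg6, by a log2 fold change of -0.95 (SE 0.27, 95% interval -1.57 to -0.34, adjusted p = 0.0259). In sg5 the value was -0.66 (SE 0.27, -1.26 to -0.06, adjusted p = 0.0991), and sg5 minus sg6 was 0.29 (SE 0.27, -0.31 to 0.90, adjusted p = 0.675). The sg6 call was lost when WT replicate 2 (-0.91, adjusted p = 0.0785), WT replicate 3 (-0.69, adjusted p = 0.0775), sg6 replicate 1 (-0.82, adjusted p = 0.0836) or sg6 replicate 2 (-0.94, adjusted p = 0.0731) was left out. It was also lost with just these 2 groups in the fit (-0.97, adjusted p = 0.0504). Without WT replicate 1 the sg5 difference passed (-0.92, adjusted p = 0.00752). With the replicate number as a block, sg5 passed too (-0.60, adjusted p = 0.0282), although the numbers did not pair these libraries.

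The rRNA-depleted libraries gave another picture of *Tet1*. It measured 6.31, 5.64 and 10.2 CPM in WT, 14.2, 9.64 and 7.42 CPM in sg5 and 8.01, 2.27 and 4.6 CPM in sg6, and all groups overlapped. The log2 fold change was 0.49 in sg5 (SE 0.38, 95% interval -0.33 to 1.31, adjusted p = 0.575), above 0 where the polyA value was below it. In sg6 it was -0.58 (SE 0.39, -1.42 to 0.26, adjusted p = 0.625). Between the clones it was 1.07 (SE 0.39, 0.23 to 1.91, adjusted p = 0.467), the largest estimate among all members and comparisons, and it did not pass. The sg6 estimate was below 0 in both kinds of library and the sg5 estimate in polyA libraries alone, and the difference between the kinds of library was not tested.

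*Tet2*, which lacks a CXXC domain of its own, measured 38.7, 45.0 and 52.3 CPM in the WT polyA libraries, 47.3, 35.5 and 39.0 CPM in sg5 and 37.4, 34.8 and 39.2 CPM in sg6. After rRNA depletion it measured 24.9, 20.2 and 26.9 CPM in WT, 38.1, 30.3 and 25.6 CPM in sg5 and 27.9, 17.2 and 19.7 CPM in sg6. The groups overlapped in both. The log2 fold change in polyA was -0.16 (SE 0.13, 95% interval -0.46 to 0.14, adjusted p = 0.417) in sg5 and -0.29 (SE 0.13, -0.59 to 0.01, adjusted p = 0.136) in sg6. After rRNA depletion it was 0.38 (SE 0.21, -0.07 to 0.84, adjusted p = 0.386) and -0.15 (SE 0.21, -0.61 to 0.30, adjusted p = 0.855). These 4 intervals lay within a 2-fold change.

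*Tet3*, the TET enzyme known for oxidising the paternal genome in the zygote, measured 58.8, 66.1 and 86.5 CPM in the WT polyA libraries, 55.9, 61.0 and 67.5 CPM in sg5 and 49.2, 65.5 and 63.4 CPM in sg6. After rRNA depletion it measured 8.67, 13.2 and 10.5 CPM in WT, 14.2, 24.4 and 11.1 CPM in sg5 and 9.74, 8.79 and 13.0 CPM in sg6. The second sg5 library stood above the other 8. The polyA log2 fold change was -0.20 (SE 0.16, 95% interval -0.55 to 0.16, adjusted p = 0.394) in sg5 and -0.25 (SE 0.16, -0.60 to 0.11, adjusted p = 0.271) in sg6. With rRNA depletion it was 0.61 (SE 0.28, 0.02 to 1.2, adjusted p = 0.278) and -0.04 (SE 0.28, -0.63 to 0.56, adjusted p = 0.981). In sg5 all 3 TET genes thus had an estimate below 0 in polyA and above 0 in rRNA-depleted libraries, and in sg6 all 6 were below 0.

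*Tdg*, the glycosylase at the end of the oxidation route, gave the closest match between lines. It measured 87.2, 71.3 and 60.1 CPM in the WT polyA libraries, 77.1, 77.2 and 66.2 CPM in sg5 and 80.8, 69.4 and 61.9 CPM in sg6. The rRNA-depleted libraries held 20.5, 21.5 and 15.2 CPM of it in WT, 17.4, 23.7 and 17.8 CPM in sg5 and 17.8, 18.2 and 18 CPM in sg6. Every group lay inside or across the range of the others. The log2 fold change was 0.01 (SE 0.15, 95% interval -0.32 to 0.34, adjusted p = 0.959) in sg5 and -0.04 (SE 0.15, -0.37 to 0.29, adjusted p = 0.856) in sg6 for polyA, and 0.04 (SE 0.18, -0.35 to 0.43, adjusted p = 0.944) and -0.08 (SE 0.18, -0.47 to 0.31, adjusted p = 0.923) for rRNA-depleted RNA. All of these intervals lay well within a 2-fold change. Of the 31-base words of *Tdg*, 48.0% also occur in other transcripts, so these counts may hold reads of its copies.

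**Figure D1:**
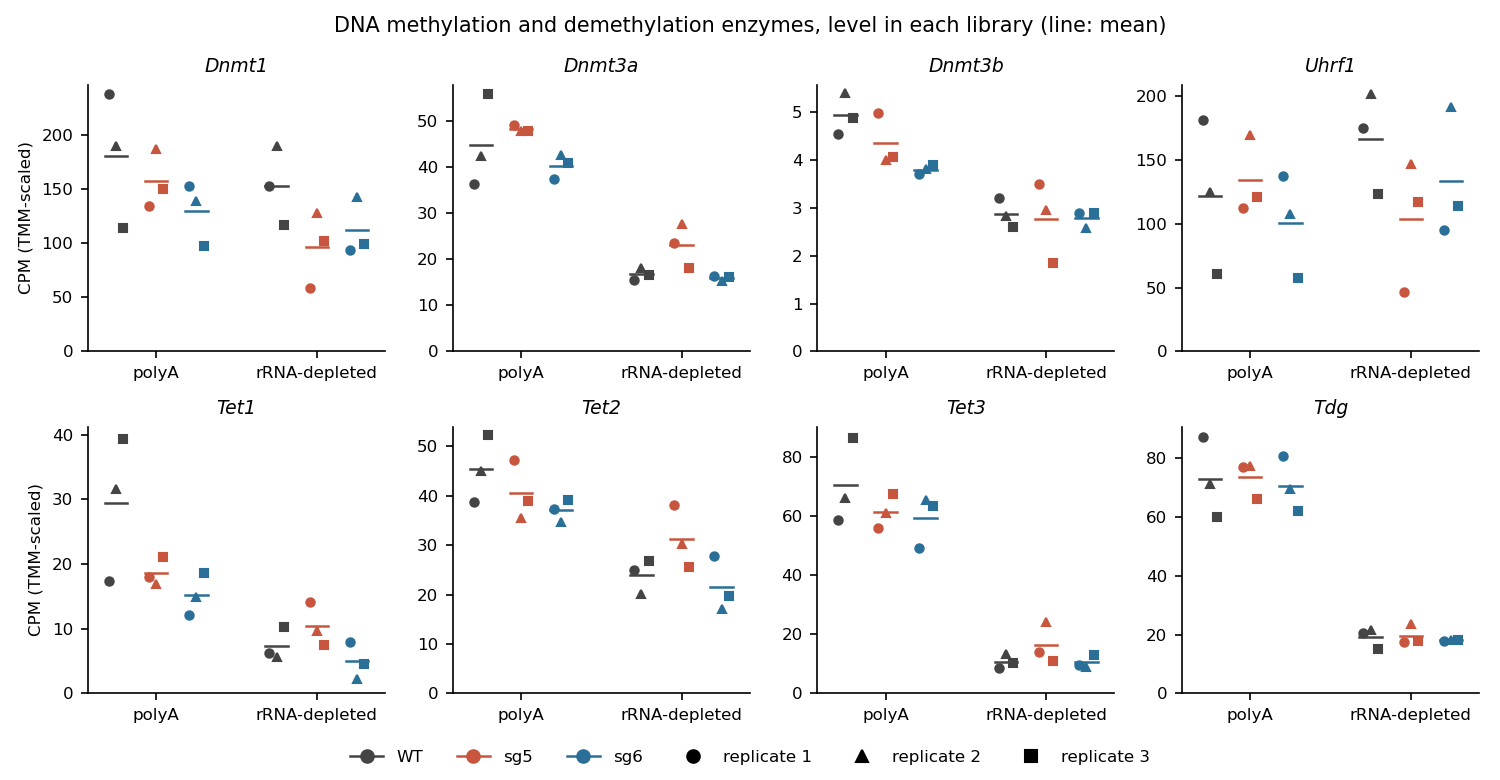
Level of each of the 8 genes in CPM (vertical axis, from 0) in each of 18 libraries, grouped by kind of RNA and line. Symbols give the replicate number and lines the mean of 3 libraries, and *Tet1* in polyA libraries shows WT at 17.4, 31.6 and 39.4 CPM beside sg6 at 12.2 to 18.7 CPM.

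Counted over the set, edgeR called 0 of 8 genes higher and 0 lower in sg5 polyA libraries, where 13.6% of all genes tested were called higher and 13.4% lower. At an unadjusted p below 0.05 there was 1 member, and DESeq2 called 0. In sg6 polyA libraries 0 members were called higher and 1 lower (*Tet1*), beside 16.1% and 14.6% of all genes, with 2 members at an unadjusted p below 0.05 and 2 called lower by DESeq2 (*Tet1* and *Dnmt3b*). In rRNA-depleted libraries 0 members were called in either direction in either clone. There 5.64% of genes were called higher and 5.1% lower in sg5, and 3.56% and 4.03% in sg6. The members with an unadjusted p below 0.05 numbered 3 in sg5 (*Dnmt1*, *Dnmt3a* and *Tet3*) and 0 in sg6, and DESeq2 called 0 in both. With 8 members these counts cannot be set apart from the shares among all genes.

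With a log2 fold change beyond 1 required as well, 0 of 8 members passed in any of the 4 comparisons with WT. The shares of all genes were 10.1% (sg5) and 11.2% (sg6) in polyA and 7.35% (sg5) and 5.75% (sg6) in rRNA-depleted libraries. Between the 2 clones edgeR called 0 members, beside 4.79% of genes in polyA and 1.57% in rRNA-depleted libraries, with 0 and 4 members at an unadjusted p below 0.05 and 0 by DESeq2. The median log2 fold change over the 8 members was -0.17 in sg5 and -0.28 in sg6 for polyA, where the median over all genes was -0.0024 and -0.0061. For rRNA-depleted RNA it was 0.21 and -0.12, beside 0.08 and 0.04 over all genes. In sg6 the estimate was below 0 for 8 of 8 members in both kinds of library. All were set against the same WT libraries, and the share of all genes below 0 was not counted. In fits without 1 library, *Dnmt3a*, *Uhrf1* and *Tdg* turned above 0 in polyA. *Dnmt3a*, *Dnmt3b*, *Tet2*, *Tet3* and *Tdg* did so in rRNA-depleted libraries.

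What the data can bound is the size of a change. In 20 of 32 comparisons of a member with WT, the 95% interval lay within a 2-fold change in either direction, and between the clones it did so in 12 of 16. The intervals that reached further were those of *Dnmt1*, *Uhrf1*, *Tet1* and, in sg5 rRNA-depleted libraries, *Tet3*. A larger difference in those 4 genes is not excluded by these libraries.

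**Figure D2:**
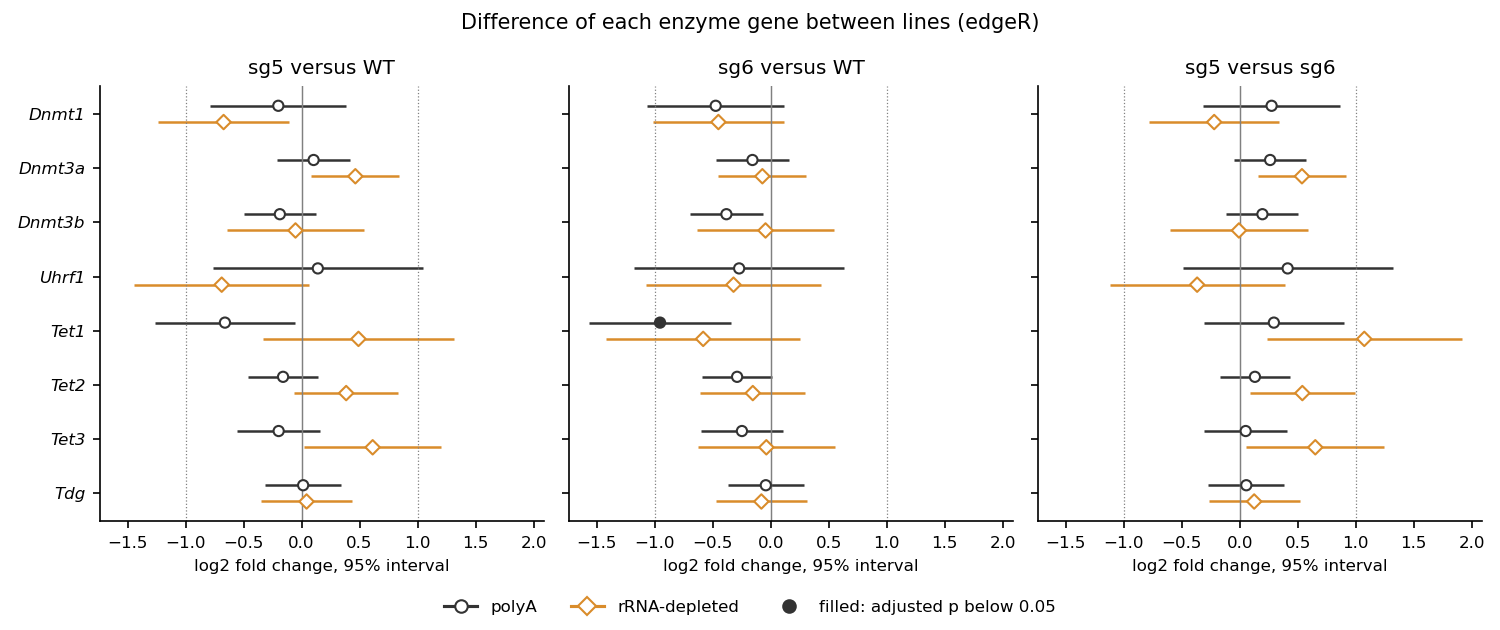
Log2 fold change (horizontal axis) with its 95% interval for the 8 genes in 3 comparisons, circles for polyA and diamonds for rRNA-depleted libraries, with dotted lines at a 2-fold change. The 1 filled point is *Tet1* in sg6 polyA libraries at -0.95, and the intervals of *Dnmt3a* and *Tdg* stay inside the dotted lines throughout.

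The libraries of a single line differed from each other, and the methylation enzymes differed with them. As a measure of S phase, the CPM of 20 genes of DNA replication (the MCM helicase, GINS, nucleotide synthesis and chromatin assembly factor genes among them) were summed. This sum was 1929, 1390 and 721 CPM in the WT polyA libraries, 1317, 1809 and 1360 CPM in sg5 and 1509, 1151 and 795 CPM in sg6. It was 2130, 2277 and 1526 CPM in the WT rRNA-depleted libraries, 789, 1812 and 1641 CPM in sg5 and 1321, 2271 and 1414 CPM in sg6. Within a group it thus varied by 1.37-fold to 2.67-fold, while edgeR called 0 of the 20 genes in any comparison with WT. At an unadjusted p below 0.05 there were 0 (sg5) and 1 (sg6) of them in polyA and 7 and 0 in rRNA-depleted libraries, and DESeq2 called 0 and 1, and 1 and 0. The medians of their log2 fold changes were 0.05 (sg5) and -0.31 (sg6) in polyA and -0.57 and -0.22 in rRNA-depleted libraries.

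*Dnmt1* and *Uhrf1* followed this sum. In 6 of 6 groups of 3 libraries, the library with the highest replication sum had the highest *Dnmt1* and the highest *Uhrf1*, and the library with the lowest sum had the lowest of both. *Tdg* had its highest library there in 6 of 6 groups and its lowest in 5 of 6. Some of its ranks rest on small margins, since its highest and lowest library of a group differed by 1.02-fold to 1.45-fold. In sg6 after rRNA depletion they were 18.2 and 17.8 CPM. *Tet2* ran the other way, with its highest level in the library of the lowest sum in 6 of 6 groups, and *Tet1* did so in 5 of 6. *Dnmt3a*, *Dnmt3b* and *Tet3* kept no such order, sharing the highest library with the sum in 2, 0 and 2 of 6 groups. These libraries share lines and scaling, so this is a description with no test, and the part of cell cycle in any difference between lines was not tested.

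The maintenance pair was also set against the replication genes. *Uhrf1* came to 89.1 ± 4.99 CPM per 1000 CPM of replication genes in WT polyA libraries, 89.4 ± 4.32 in sg5 and 85.6 ± 11.9 in sg6 (SD, n = 3), the same level within the spread. *Dnmt1* came to 123.4, 136.7 and 158.5 CPM per 1000 in WT, 101.9, 103.4 and 110.8 in sg5 and 101.3, 121.1 and 123.2 in sg6. In this ratio no KO library reached the lowest WT library, though the highest sg6 and the lowest WT library nearly touched. In rRNA-depleted libraries *Dnmt1* came to 77.4 ± 5.94 per 1000 in WT, 69.2 ± 6.52 in sg5 and 68.2 ± 4.42 in sg6. There sg5 overlapped WT, and the highest sg6 library, at 71.0, was under the lowest WT library, at 71.8. *Uhrf1* came to 83.8 ± 3.97 per 1000 there in WT, 70.3 ± 11.2 in sg5 and 78.8 ± 6.34 in sg6, and both clones overlapped WT. The mean of *Uhrf1* in sg5 was thus below that of WT after rRNA depletion and level with it in polyA libraries. The ratio was taken after the values had been seen and was not tested.

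**Figure D3:**
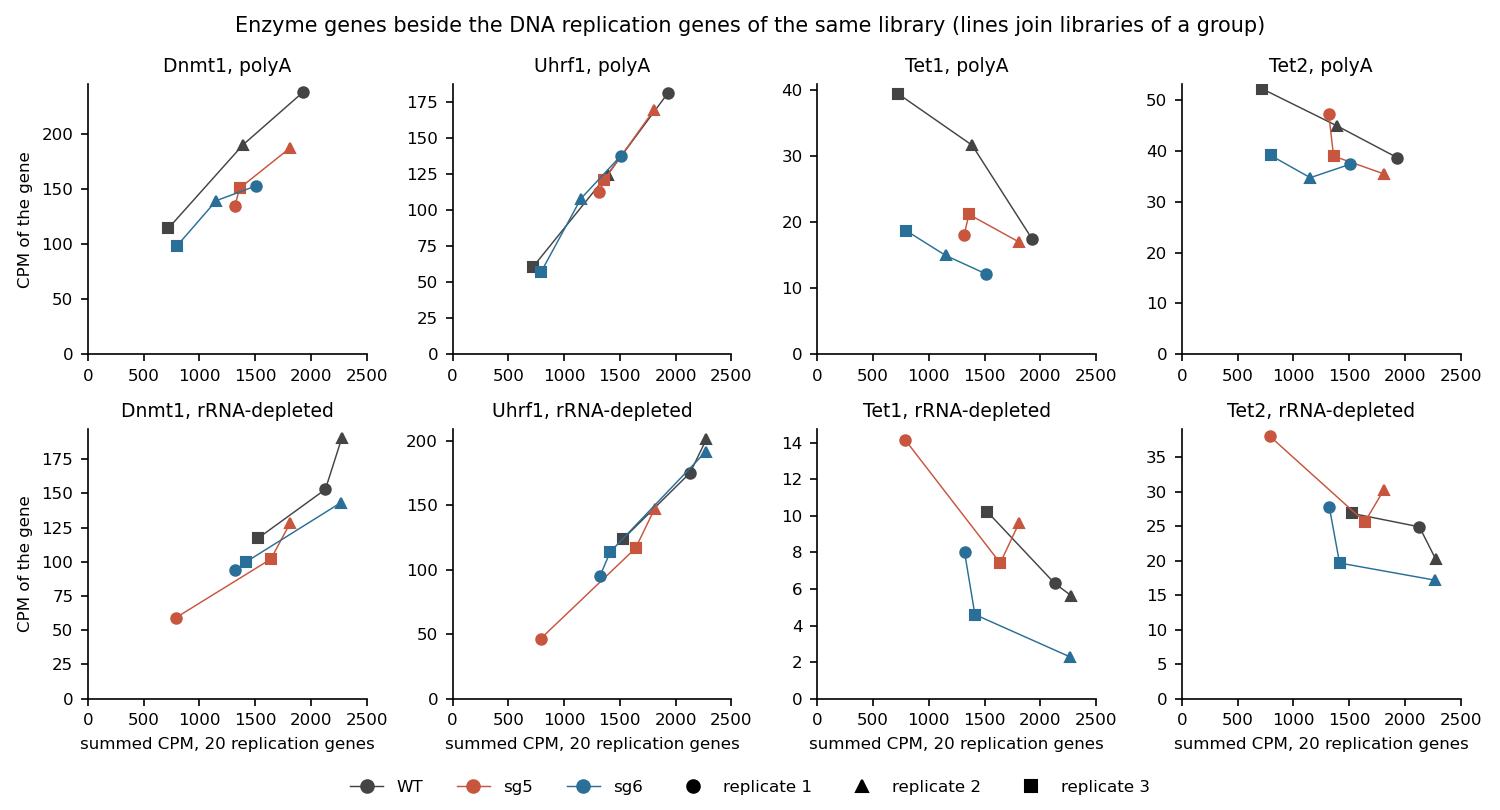
CPM of *Dnmt1*, *Uhrf1*, *Tet1* and *Tet2* (vertical axes, from 0) against the summed CPM of 20 replication genes in the same library (horizontal axis), polyA above and rRNA-depleted below, with lines joining the 3 libraries of a group. *Uhrf1* climbs with the sum in all groups, and *Tet1* and *Tet2* are highest in the libraries with a low sum, except *Tet1* in sg5 polyA libraries. In polyA libraries *Dnmt1* overlaps between the lines in CPM. Relative to the sum it is lower in the KO libraries than in WT, with sg6 and WT nearly touching.

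Promoter windows of *Dnmt1* and *Uhrf1* are shown, from 250 bases before to 50 bases after a RefSeq start site on GRCm38.p6. These genes were chosen after both had been seen to run with the replication genes. Capitals mark words of the kind bound by E2F factors, which drive S phase genes: TTTCCCGC, TTTCGCGC, TTTGCCGC or TTTGGCGC, searched on both strands. The *Dnmt1* window lies at chr9:20952574-20952873 on the minus strand, with words starting at -219 and 34 from the start site. The *Uhrf1* window lies at chr17:56304063-56304362 on the plus strand, with 1 word at -185.
Dnmt1: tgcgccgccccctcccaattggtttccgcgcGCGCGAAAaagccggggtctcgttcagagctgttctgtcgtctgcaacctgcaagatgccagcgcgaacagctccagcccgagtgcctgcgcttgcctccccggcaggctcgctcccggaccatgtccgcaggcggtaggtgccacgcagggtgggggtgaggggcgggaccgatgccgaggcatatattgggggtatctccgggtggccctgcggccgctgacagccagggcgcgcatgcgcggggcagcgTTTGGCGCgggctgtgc
Uhrf1: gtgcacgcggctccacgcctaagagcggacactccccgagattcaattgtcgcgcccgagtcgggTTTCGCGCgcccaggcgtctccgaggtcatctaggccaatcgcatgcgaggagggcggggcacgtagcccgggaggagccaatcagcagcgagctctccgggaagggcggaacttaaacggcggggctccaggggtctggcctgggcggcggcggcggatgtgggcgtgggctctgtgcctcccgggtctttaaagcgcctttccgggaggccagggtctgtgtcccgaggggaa

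RefSeq held 13 windows for the 8 members, and these 2 were the windows with such a word, so 2 of 8 members had one. The word occurred in 2.26% of 32851 promoter windows of the same length. Counted by gene, it occurred in 2.6% of 27025 genes and in 7 of the 16 replication genes that the table matched. *Tdg*, which had its highest library with the replication sum in 6 of 6 groups, some by a small margin, had no such word in its window. Both windows shown held 33 CpG dinucleotides, against a median of 7 over all windows. Every word searched holds a CpG, and the shares were not matched for CpG content. The part of these words in the order of the libraries was not tested. A match of letters is a description and not a bound site, and the 6 members without a match lack these letters in these windows only.

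Genes around these enzymes were read from lists by role, each against the shares of all genes given for its comparison. The partners of the maintenance enzymes gave few calls. Of 8 genes (among them *Pcna*, *Hells*, *Cdca7* and *Usp7*), 0 passed the edgeR test in sg5 polyA libraries, and in sg6 1 rose and 1 fell. Those were *Uhrf2*, a relative of *Uhrf1* (log2 fold change 0.56, SE 0.13, adjusted p = 0.0118), and *Trdmt1*, a tRNA methyltransferase of the DNMT family (-0.46, SE 0.14, adjusted p = 0.0371). In rRNA-depleted libraries 0 of 8 passed in either clone. The median log2 fold changes were 0.24 and -0.03 in polyA and -0.08 and -0.06 in rRNA-depleted libraries, for sg5 and sg6. Of the 7 tested cofactors of de novo methylation, 1 rose and 0 fell in sg6 and 0 passed in sg5, in both kinds of library. That gene was *Nsd1*, which methylates histone H3 at lysine 36 (0.44, SE 0.11, adjusted p = 0.0166 in polyA and 0.63, SE 0.13, adjusted p = 0.0175 in rRNA-depleted libraries).

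The next list held MBD genes, named for a methyl-CpG-binding domain, and zinc finger readers of methylated CpG. Not every MBD protein is taken here as a reader. *Mbd1* and *Mbd2* rose and *Mbd4* fell in both clones in polyA libraries. Of 10 genes, 3 rose and 1 fell in each clone there. The other gene that rose was *Mbd5* in sg5 and *Zbtb38* in sg6. In rRNA-depleted libraries 1 rose and 0 fell in sg5 and 0 passed in sg6. *Mbd2*, a methyl-CpG reader of the NuRD complex, measured 61.8 to 86.4 CPM in the WT polyA libraries. It measured 114 to 122 CPM in sg5 and 114 to 123 CPM in sg6. The clones did not overlap WT. It rose by log2 fold changes of 0.66 (SE 0.11, adjusted p = 0.00278) and 0.65 (SE 0.11, adjusted p = 0.00243). In rRNA-depleted libraries its values were 0.57 (SE 0.15, adjusted p = 0.0507) and 0.48 (SE 0.15, adjusted p = 0.128), also with no overlap. There sg5 passed by DESeq2 (adjusted p = 0.0351), with at least 10 counts in every library (0.0330), with the replicate block (0.0253) and with genes alone in the edgeR fit (0.0117), and sg6 passed with genes alone (0.0254).

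*Mbd1*, a repressor that binds methylated CpG, measured 50.6 to 58.4 CPM in the WT polyA libraries, 77.2 to 79.3 CPM in sg5 and 72.0 to 78.7 CPM in sg6. It rose by 0.52 (SE 0.07, adjusted p = 0.00106) and 0.48 (SE 0.07, adjusted p = 0.00140) on the log2 scale. In rRNA-depleted libraries it rose in sg5 (0.62, SE 0.14, adjusted p = 0.0282), and this call held in 1 of 9 fits that each left out a library. It was kept without sg6 replicate 1. The call was also lost with just the 2 groups in the fit (adjusted p = 0.0533) and without a filter (adjusted p = 0.367). In sg6 the value was 0.43 (SE 0.14, adjusted p = 0.174), which passed with genes alone (adjusted p = 0.0230). *Mbd4*, a glycosylase that removes thymine from mismatches at CpG, measured 11.0 to 13.8 CPM in the WT polyA libraries. It measured 6.93 to 9.92 CPM in sg5 and 7.26 to 7.99 CPM in sg6. It fell in both clones, by -0.54 (SE 0.15, adjusted p = 0.0296) in sg5 and -0.73 (SE 0.16, adjusted p = 0.00708) in sg6. The sg5 call was lost without WT replicate 1 (adjusted p = 0.0574), WT replicate 2 (adjusted p = 0.103), sg5 replicate 1 (adjusted p = 0.0694) or sg5 replicate 3 (adjusted p = 0.0566), and with just the 2 groups in the fit (adjusted p = 0.0637). In rRNA-depleted libraries the values were -0.68 (SE 0.21, adjusted p = 0.0966) and -0.56 (SE 0.21, adjusted p = 0.237). The first of these passed with at least 10 counts in every library (adjusted p = 0.0480), with the block (0.0287) and with genes alone (0.0297).

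Proteins that bind unmethylated CpG through CXXC domains were 8 in the list. In polyA libraries 1 rose and 1 fell in sg5, and 2 rose and 2 fell in sg6, whereas 1 of 7 rose in sg5 and 0 passed in sg6 in rRNA-depleted libraries. *Cxxc5* measured 26.4 to 34.1 CPM in the WT polyA libraries, 43.75 to 49.95 CPM in sg5 and 39.6 to 51.6 CPM in sg6. It rose by 0.69 (SE 0.13, adjusted p = 0.00432) and 0.67 (SE 0.13, adjusted p = 0.00414) on the log2 scale. In rRNA-depleted libraries it rose in sg5 (0.87, SE 0.19, adjusted p = 0.0211), a call lost without WT replicate 1 (adjusted p = 0.0721), WT replicate 3 (adjusted p = 0.108), sg5 replicate 2 (adjusted p = 0.0915) or sg5 replicate 3 (adjusted p = 0.0686). The sg6 value was 0.34 (SE 0.19, adjusted p = 0.520). *Cxxc4*, a related gene whose product is known to bind TET2, was low in WT and near 0 in the clones. In polyA libraries it measured 0.419 to 1.02 CPM in WT, 0 to 0.0123 CPM in sg5 and 0 CPM in all 3 sg6 libraries. The edgeR test called it lower in both clones (adjusted p = 0.000485 and 0.00108). It passed the filter through the WT libraries alone, so a call could only be lower. After rRNA depletion it did not pass the filter and was not tested. No fold is given, since several of these libraries had 0 counts.

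The list of base excision repair genes, with glycosylases and the GADD45 genes in it, went in both directions. In polyA libraries 4 of 13 rose and 2 fell in each clone, against WT libraries that both comparisons share. Of all genes, 13.6% rose and 13.4% fell in sg5, and 16.1% and 14.6% in sg6. The list was not tested as a set. *Apex1*, which cuts the backbone at the empty site, rose by 0.51 in sg5 and 0.45 in sg6 on the log2 scale, and *Polb*, which fills the gap, by 0.43 and 0.54. *Gadd45g*, a stress gene linked to active demethylation, rose by 0.44 and 0.97. *Xrcc1* and *Lig3*, the scaffold and the ligase that seal the strand, had log2 fold changes of -0.40 and -0.48 in sg5 and -0.39 and -0.49 in sg6 and fell in both clones. In rRNA-depleted libraries *Neil1*, *Apex1* and *Gadd45b* rose and *Lig3* fell in sg5, and *Neil1* and *Gadd45g* rose in sg6.

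*Neil1* was the repair gene that passed in all 4 comparisons. It measured 3.32 to 5.29 CPM in WT, 6.37 to 7.09 CPM in sg5 and 6.42 to 8.61 CPM in sg6 in polyA libraries. The rRNA-depleted libraries gave 1.88 to 3.15, 5.53 to 8.16 and 5.37 to 7.58 CPM, and no KO library overlapped WT in either kind. It rose by 0.73 (SE 0.19, adjusted p = 0.0214) and 0.86 (SE 0.19, adjusted p = 0.00881) in polyA and by 1.29 (SE 0.27, adjusted p = 0.0154) and 1.2 (SE 0.27, adjusted p = 0.0271) in rRNA-depleted libraries. The polyA sg5 call was lost without WT replicate 2 (adjusted p = 0.0913) or sg5 replicate 3 (adjusted p = 0.0626), and the rRNA-depleted sg5 call without WT replicate 2 (adjusted p = 0.0871). The rRNA-depleted sg6 call was lost without WT replicate 2 (adjusted p = 0.138), WT replicate 3 (adjusted p = 0.0835), sg6 replicate 1 (adjusted p = 0.107) or sg6 replicate 3 (adjusted p = 0.0630).

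Enzymes that supply or limit the TET reaction (*Ogt*, the IDH, SDH and 2-hydroxyglutarate dehydrogenase genes and ascorbate carriers) gave 1 call in each clone. Of 11 genes, 1 fell in sg5 polyA libraries (*D2hgdh*, -0.79, SE 0.13, adjusted p = 0.00227) and 1 in sg6 (*Idh2*, -0.49, SE 0.10, adjusted p = 0.00517), and 0 passed in rRNA-depleted libraries. In the cycle that makes S-adenosylmethionine, the methyl donor, 1 of 11 rose and 2 fell in each clone in polyA libraries. These were mostly different genes, with *Nnmt* as the 1 shared call. In sg5 *Ahcyl1* rose and *Gnmt* and *Nnmt* fell, and in sg6 *Mtrr* rose and *Mat2a* and *Nnmt* fell. In rRNA-depleted libraries 0 of 9 rose and 1 fell in each clone. *Nnmt*, which consumes the methyl donor by methylating nicotinamide, fell in all 4 comparisons. It measured 0.349 to 0.652 CPM in the WT polyA libraries, 0 to 0.0370 CPM in sg5 and 0.0161 to 0.0533 CPM in sg6. In rRNA-depleted libraries it measured 1.98 to 2.40 CPM in WT, 0 to 0.116 CPM in sg5 and 0.0431 to 0.261 CPM in sg6. The highest adjusted p of the 4 was 0.00194, and the gene was low even in WT. It passed the filter through the WT libraries alone in both kinds, so a call could only be lower. No fold is given, since some sg5 libraries had 0 counts.

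Germline genes that DNA methylation is known to keep silent in somatic cells were also read. Of 24 such genes, 7 in polyA and 5 in rRNA-depleted libraries passed the filter on low counts. In polyA libraries 0 of 7 rose and 3 fell in each clone. Beside that, 13.6% of all genes rose and 13.4% fell in sg5, and 16.1% and 14.6% in sg6. *Brdt* and *Piwil2* were called in both clones, *Tdrkh* in sg5 alone and *Sycp2* in sg6 alone. In rRNA-depleted libraries 0 of 5 passed. *Brdt*, a testis bromodomain gene, measured 3.49 to 4.87 CPM in the WT polyA libraries. It measured 1.54 to 1.66 CPM in sg5 and 1.56 to 1.88 CPM in sg6. It fell by -1.48 (SE 0.17, adjusted p = 0.000343) and -1.40 (SE 0.18, adjusted p = 0.000452) on the log2 scale. In rRNA-depleted libraries its log2 fold changes were -1.60 (SE 0.42, adjusted p = 0.0515) and -1.21 (SE 0.41, adjusted p = 0.183), with no overlap with WT. There sg5 passed by DESeq2 (adjusted p = 0.0340), with just the 2 groups (0.0495), with the block (0.0271), with genes alone (0.0297) and without sg6 replicate 2 (0.0449). *Piwil2*, a PIWI protein of the germline, measured 1.43 to 2.65 CPM in WT, 0.659 to 0.751 CPM in sg5 and 0.902 to 1.06 CPM in sg6 in polyA libraries. It fell there by -1.46 (SE 0.23, adjusted p = 0.00166) and -1.0 (SE 0.23, adjusted p = 0.0107). After rRNA depletion the values were -0.62 (SE 0.55, adjusted p = 0.633) and -0.61 (SE 0.54, adjusted p = 0.746), and both clones overlapped WT. The summed level of all listed germline genes was 16.8 to 25.0 CPM in WT, 13.3 to 19.4 CPM in sg5 and 12.2 to 13.2 CPM in sg6. Mitosis genes gave 0 calls of 15 in polyA libraries in either clone, and 1 lower (*Top2a*) in sg5 and 0 in sg6 in rRNA-depleted libraries. Over the lists with 0 calls by edgeR (4 in sg5 and 2 in sg6 for polyA, 5 and 7 for rRNA-depleted libraries), 1, 2, 11 and 11 genes had an unadjusted p below 0.05, and DESeq2 called 0, 2, 2 and 0.

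**Figure D4:**
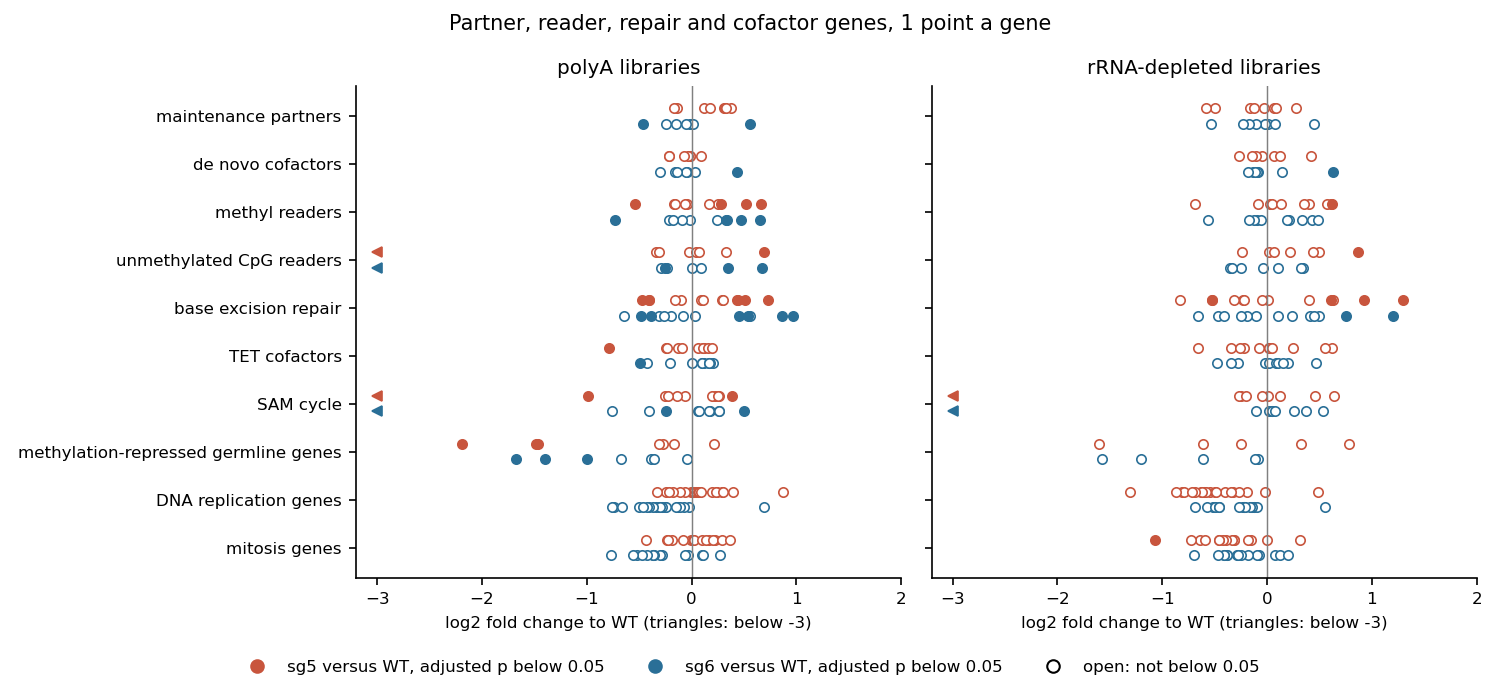
Log2 fold change to WT (horizontal axis) of the genes of 10 lists, 1 point a gene, sg5 above and sg6 below in each row, polyA on the left and rRNA-depleted on the right. Filled points passed the test and triangles mark values below the axis (*Cxxc4* and *Nnmt*), and in polyA libraries the base excision repair row shows 4 filled points above and 2 below 0 in each clone.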

How the data were processed

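RNA of *Atrx* WT, sg5 and sg6 C3H/10T1/2 cells was measured in 18 libraries. For the polyA libraries the authors ran Rfastp, Salmon and tximport on mm10 gene models and deposited the estimated (expected) count of each gene. For rRNA-depleted RNA, reads were aligned by the authors with STAR, who deposited the TElocal read count of each gene and transposable element locus. Neither table was normalized, and the strand setting was not stated. The deposited expected counts are whole numbers, so rounding changed none, and all per-sample columns were used. Gene symbols matched 24045 of 24100 identifiers in RefSeq.

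Counts were filtered with filterByExpr (minimum count 10, minimum total 15, large group 10, proportion 0.7), scaled by TMM and tested with the quasi-likelihood test of edgeR 4.0.16 in R 4.3.3. Each fit held the 9 libraries of a kind as 3 groups, and transposable element loci stayed in the rRNA-depleted fit (56086 features). Values of p were adjusted by Benjamini-Hochberg over all features, with a threshold of 0.05, and shares of called genes were taken over genes. Intervals are 95% intervals of the log2 fold change, with SE as its size over the square root of F. Exon lengths, positions and shared 31-base words come from GENCODE on GRCm38. Plots used matplotlib 3.10.9 (Python 3.11.15). The fit was also run on simulated data.

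The labels give the groups and the replicate numbers. Nothing in the labels says that libraries of a line came from separate cultures, so p-values measure the spread between libraries of 1 line. No libraries of a group were alike within sampling noise (chi-square per gene 24.5 to 254). Same-numbered libraries deviated together (every correlation over 0.1) for sg5 against sg6 in both kinds (lowest 0.277 and 0.174) and for sg6 against WT in rRNA-depleted libraries (lowest 0.114).

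The members and lists were chosen with earlier results of these data known. From each list, up to 4 genes were described that passed in the same direction in both clones in both kinds of library or, failing any, in both clones in polyA libraries. Other genes of the lists are named to fill a count and were chosen after their values were seen. The alternatives were DESeq2 1.42.0, median-of-ratios factors, other filters, 2-group fits, the replicate block, thinned counts (polyA), genes alone (rRNA-depleted) and fits without each library.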

Additional observations from a re-analysis of the deposited data

How the results depend on the processing

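Among the values of members under other settings, 714 kept their direction and their side of the threshold, 43 changed sign, 6 came to pass the test and 5 no longer passed. In sg5 polyA libraries *Tdg* turned to -0.0033 with at least 10 counts in every library and to -0.011 with counts thinned to the smallest library. In sg5 rRNA-depleted libraries it turned to -0.033 with at least 10 counts and to -0.023 with genes alone. In sg6 rRNA-depleted libraries *Tet3* turned to 0.0062 by DESeq2 and to 0.0061 with median-of-ratios factors. Between the clones in rRNA-depleted libraries, *Dnmt3b* turned to 0.000402 with median-of-ratios factors and to 0.0065 without a filter.

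Fits that each left out 1 library gave these ranges of log2 fold change where the sign turned. For sg5 polyA against WT they were -0.44 to 0.049 for *Dnmt1*, -0.021 to 0.29 for *Dnmt3a*, -0.18 to 0.54 for *Uhrf1* and -0.11 to 0.16 for *Tdg*. For sg6 polyA they were -0.28 to 0.030 for *Dnmt3a*, -0.60 to 0.13 for *Uhrf1* and -0.16 to 0.11 for *Tdg*. For sg5 against sg6 they were -0.062 to 0.13 for *Tet3* and -0.036 to 0.17 for *Tdg* in polyA, and -0.46 to 0.028 for *Dnmt1*, -0.23 to 0.21 for *Dnmt3b* and -0.014 to 0.20 for *Tdg* in rRNA-depleted libraries. For sg5 rRNA-depleted they were -0.23 to 0.19 for *Dnmt3b* and -0.11 to 0.15 for *Tdg*. For sg6 rRNA-depleted they were -0.088 to 0.0085 for *Dnmt3a*, -0.13 to 0.085 for *Dnmt3b*, -0.36 to 0.010 for *Tet2*, -0.17 to 0.16 for *Tet3* and -0.23 to 0.028 for *Tdg*.

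The number of members called ranged from 0 to 1 in sg5 polyA and from 0 to 2 in sg6 polyA libraries over the same fits, and from 0 to 1 in sg6 polyA with a log2 fold change beyond 1 required. DESeq2 called 2 members in sg6 polyA libraries, and the fit of just the 2 groups called 0. The replicate number as a block gave 1 call in sg5 polyA (*Tet1*) and 1 in sg5 rRNA-depleted libraries (*Dnmt1*, -0.71, adjusted p = 0.0345). In neither comparison did the numbers pair the libraries (lowest correlations 0.026 and -0.229), and where they did the block changed no call of a member. Genes called over the whole table moved by over 1.5 times as follows. For sg5 polyA they went from 4180 to 2707 without WT replicate 2. For sg5 against sg6 polyA they went from 741 to 1401 with the block, 1440 by DESeq2, and 435, 411, 400 and 473 without sg5 replicates 2 and 3 and sg6 replicates 2 and 3. Features called in sg5 rRNA-depleted libraries went from 2176 to 3731 with the block and to 1140, 1067 and 1404 without WT replicates 2 and 3 and sg5 replicate 2. In sg6 they went from 1623 to 2509 with the block, 837 with at least 10 counts, 1082, 1049 and 785 without WT replicates 1, 2 and 3, and 1006 without sg6 replicate 3. Between the clones there they went from 275 to 468 with the block, 462 by DESeq2, 639 without a filter, 156 with at least 10 counts, 148 with just the 2 groups, and 150 without sg6 replicate 3. The cause of these shifts was not tested beyond the number of libraries left in a fit.

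The lowest counts of a TET or DNMT gene were in rRNA-depleted libraries, where *Dnmt3b* had 48 to 93 and *Tet1* 61 to 368 counts a library. Low precision was not limited to low counts. *Uhrf1*, with 1204 to 5456 counts a library there, had an SE of 0.35 against WT in each clone. With 3 libraries of 1 clone per guide, intervals for *Dnmt1*, *Uhrf1* and *Tet1* are wide, and loss of *Atrx* cannot be told apart from whatever else separates these lines.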
